A study of Mus musculus with 3 samples.

Results

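Rex2, Zfp534, Zfp600, Zfp560 and Zfp951 are zinc finger genes of the KRAB type that had low read counts in mouse embryonic stem cells (ESCs) labelled as a DAXX knockout. They are 5 of the 24006 gene symbols with read counts, and 364 symbols carry a Zfp name. The genes were chosen because their reads were low in the DAXX knockout library against the wildtype library. That contrast therefore describes them and tests nothing. Each gene's value is the sum of the reads on all its transcript rows in a library. Polyadenylated RNA was sequenced from a DAXX knockout clone (DAXX-/-, clone KO2-3), an ATRX knockout clone (ATRX-/-, clone KO1-44) and a wildtype clone (WT26). All 3 clones are male, isogenic and of C57BL/6x129sV background, and the knockouts were made by CRISPR targeting. The cells were cultured with serum and leukaemia inhibitory factor and had been taken off irradiated feeder cells onto gelatin. Each genotype is 1 clone and 1 library, so no difference has a replicate check, no test of genotype was possible, and a property of a clone cannot be told apart from the effect of its genotype.

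KRAB zinc finger proteins carry an array of C2H2 fingers that reads DNA and a KRAB domain that binds the corepressor TRIM28 (KAP1). TRIM28 brings in the H3K9 methyltransferase SETDB1, and in ESCs the genomic targets are mostly endogenous retroviruses and other retroelements. The genes arose by repeated duplication, often lie side by side in clusters, and deletion of such clusters in mouse ESCs has been reported to reactivate retroelements. DAXX is a chaperone of the histone variant H3.3 and ATRX a chromatin remodeller, and the complex they form deposits H3.3 at heterochromatin and at retroelements.

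Rex2, Zfp534 and Zfp600 lie within a tandem cluster on chromosome 4 (build GRCm38, GENCODE M21). Zfp600 spans chr4:146156824-146198755 and Rex2 spans chr4:147021850-147060794, both on the plus strand. Zfp534 lies at chr4:147673502-147702553 on the minus strand. Zfp951 (chr5:104813169-104860070) and Zfp560 (chr9:20345136-20385177), both on the minus strand, lie elsewhere. The translated coding sequences held 15 C2H2 fingers in Rex2, 15 in Zfp534, 17 in Zfp600, 15 in Zfp560 and 10 in Zfp951. Presence of the KRAB domain was not searched for.

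The promoters of these genes are shown because 3 of them are related copies while the other two are not. Each is 300 bases long, from 250 before to 50 after the RefSeq start site (GRCm38.p6), and is written in the direction of transcription. Zfp979, called 2610305D13Rik in the count tables, is a neighbour in the cluster and is included because its promoter resembles that of Rex2. The bases in capitals match GGAAGT or its reverse complement, the core letters bound by ETS-family factors.
Rex2 (chr4:147021600-147021899, plus strand): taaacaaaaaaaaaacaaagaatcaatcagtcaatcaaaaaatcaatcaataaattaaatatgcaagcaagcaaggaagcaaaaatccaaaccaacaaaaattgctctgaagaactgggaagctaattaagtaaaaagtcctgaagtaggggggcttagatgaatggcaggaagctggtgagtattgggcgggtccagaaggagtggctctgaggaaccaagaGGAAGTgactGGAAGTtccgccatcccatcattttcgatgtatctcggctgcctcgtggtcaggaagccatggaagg
Zfp600 (chr4:146156577-146156876, plus strand): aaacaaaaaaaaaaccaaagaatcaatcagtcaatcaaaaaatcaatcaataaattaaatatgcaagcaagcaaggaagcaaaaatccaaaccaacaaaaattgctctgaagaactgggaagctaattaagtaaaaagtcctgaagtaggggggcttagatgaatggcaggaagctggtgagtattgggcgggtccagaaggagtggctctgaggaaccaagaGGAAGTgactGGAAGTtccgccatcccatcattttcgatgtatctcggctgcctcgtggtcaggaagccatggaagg
Zfp979 (chr4:147642459-147642758, minus strand): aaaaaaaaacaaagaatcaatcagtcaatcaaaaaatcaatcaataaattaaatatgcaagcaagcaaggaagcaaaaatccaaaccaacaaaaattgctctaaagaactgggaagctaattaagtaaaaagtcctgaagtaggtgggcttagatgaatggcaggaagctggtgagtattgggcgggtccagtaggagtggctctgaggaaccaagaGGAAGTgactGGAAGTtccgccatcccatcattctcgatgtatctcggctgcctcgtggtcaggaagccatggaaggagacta
Zfp534 (chr4:147702582-147702881, minus strand): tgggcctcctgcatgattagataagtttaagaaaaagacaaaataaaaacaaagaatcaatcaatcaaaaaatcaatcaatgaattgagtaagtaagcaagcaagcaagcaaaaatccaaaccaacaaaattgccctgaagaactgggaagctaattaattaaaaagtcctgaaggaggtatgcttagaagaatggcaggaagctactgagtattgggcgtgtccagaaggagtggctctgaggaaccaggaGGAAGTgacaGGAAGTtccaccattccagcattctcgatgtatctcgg
Zfp951 (chr5:104860019-104860318, minus strand): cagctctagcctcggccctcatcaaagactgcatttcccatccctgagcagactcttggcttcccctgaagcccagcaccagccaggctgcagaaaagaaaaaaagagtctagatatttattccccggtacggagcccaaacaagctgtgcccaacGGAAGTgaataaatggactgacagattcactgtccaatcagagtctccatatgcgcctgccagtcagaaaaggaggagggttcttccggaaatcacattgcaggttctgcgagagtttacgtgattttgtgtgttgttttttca
Zfp560 (chr9:20385109-20385408, minus strand): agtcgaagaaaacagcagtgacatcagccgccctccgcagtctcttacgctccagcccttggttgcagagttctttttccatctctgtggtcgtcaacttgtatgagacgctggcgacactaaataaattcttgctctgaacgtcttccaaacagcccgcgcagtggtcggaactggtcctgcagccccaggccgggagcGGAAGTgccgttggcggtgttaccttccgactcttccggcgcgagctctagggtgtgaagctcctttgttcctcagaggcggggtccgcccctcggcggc

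The promoters of Rex2 and Zfp600 matched in 299 of 301 aligned columns (99.3%), with 0 substitutions and 2 gap columns. Zfp979 was 94.8% identical to Rex2 over this window and Zfp534 was 72.8% identical. Zfp560 and Zfp951 were 48.4% and 45.7% identical to Rex2, within the range of 45.7% to 50.9% found over all 22 pairings of either with a chromosome 4 gene. The CpG content also differed, with 23 CG pairs in the Zfp560 window and 8 in that of Zfp951, against 5 in Rex2, 5 in Zfp600 and 3 in Zfp534. The median over 32544 RefSeq promoters was 7.

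The libraries had 11224100 reads on transcripts in DAXX knockout cells, 13988376 in ATRX knockout cells and 13981915 in wildtype, with 77.01% to 78.9% of reads aligned. Levels are given as CPM, read counts divided by effective library size, after scaling by trimmed mean of M values (TMM). The targeted genes were read first. Daxx had 623 reads in DAXX knockout cells, 972 in ATRX knockout cells and 1125 in wildtype, a log2 fold of -0.44 (-0.59 to -0.30) in the DAXX knockout over wildtype. Atrx had 3576, 1800 and 4582 reads in the same order, and its log2 fold in the ATRX knockout over wildtype was -1.28 (-1.36 to -1.20). Each targeted transcript was lowest in the library named for it, but Daxx was still at 73.6% of its wildtype level in the DAXX knockout. The targeted changes are not given in the sources used here, and the loss of either protein rests on the labels. The range in parentheses that follows each log2 fold is its exact 95% interval, which covers counting error only and treats PCR copies as independent reads. The 10 pluripotency genes examined, among them Pou5f1, Nanog and Sox2, had 0 members called in either knockout, and their summed level was 5519 CPM in DAXX knockout cells, 5445 CPM in ATRX knockout cells and 4999 CPM in wildtype.

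All 5 zinc finger genes were lowest in DAXX knockout cells, intermediate in ATRX knockout cells and highest in wildtype. Rex2 had 210 reads (19.2 CPM) in DAXX knockout cells, 799 reads (57.7 CPM) in ATRX knockout cells and 1279 reads (88.1 CPM) in wildtype. Zfp600 had 338 reads (30.9 CPM) in DAXX knockout cells, 1363 reads (98.4 CPM) in ATRX knockout cells and 2044 reads (141 CPM) in wildtype. Zfp534 had 655 reads (59.97 CPM) in DAXX knockout cells, 1345 reads (97.1 CPM) in ATRX knockout cells and 2340 reads (161 CPM) in wildtype. For these 3 cluster genes the counting intervals of the levels did not overlap between any of the libraries. Such intervals cover counting error only and are narrow at these read counts. The share of all genes with this separation was not computed, and the choice had already placed the DAXX knockout below wildtype. Zfp951 had 45 reads (4.12 CPM) in DAXX knockout cells, 83 reads (5.99 CPM) in ATRX knockout cells and 208 reads (14.3 CPM) in wildtype. Its DAXX and ATRX knockout intervals overlapped, at 3.01 to 5.51 and 4.77 to 7.43 CPM, and both lay below the wildtype interval of 12.4 to 16.4 CPM. Zfp560 had 0 reads in DAXX knockout cells, 4 reads in ATRX knockout cells and 36 reads (2.48 CPM) in wildtype. A count of 0 in the DAXX knockout library allows a level of up to 0.275 CPM by a floor of 3 reads and 0.338 CPM by the exact interval, against 0.289 CPM in the ATRX knockout, so a difference between the knockouts was not detectable at this depth.

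**Figure D1:**
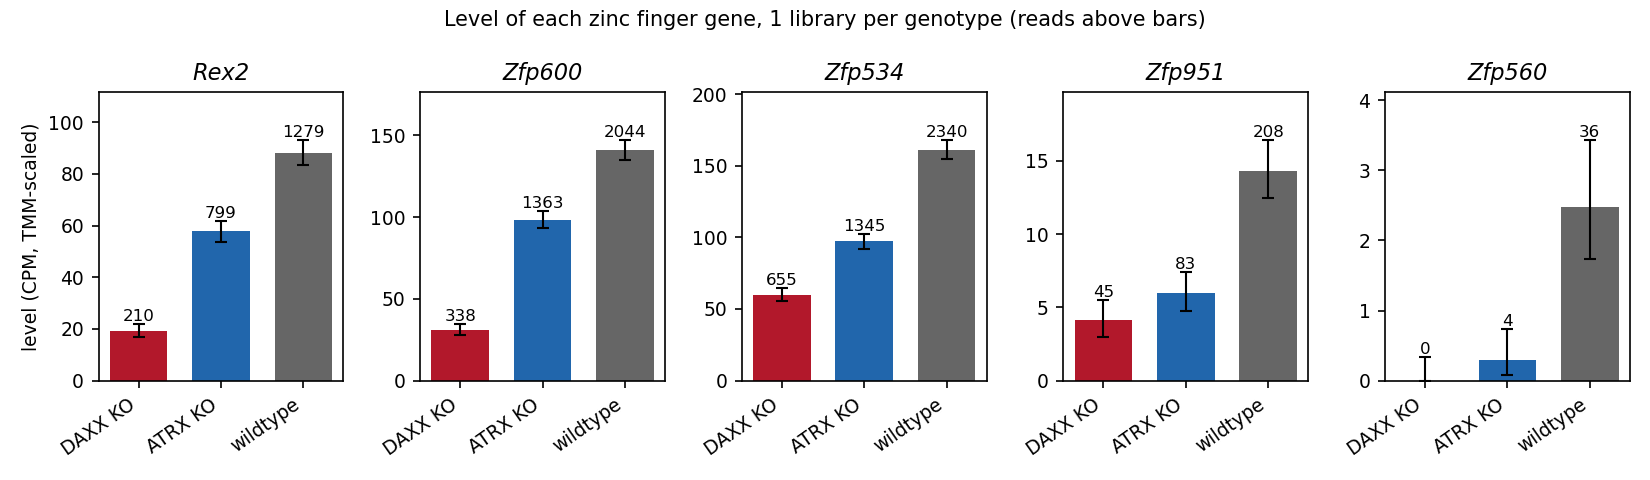
TMM-scaled level in CPM of Rex2, Zfp600, Zfp534, Zfp951 and Zfp560 in the DAXX knockout, ATRX knockout and wildtype library, 1 library each. Bars start at 0, error bars are exact 95% Poisson intervals of the count, the number above each bar is the read count, and each panel has its own scale. In all 5 panels the DAXX knockout bar is the lowest and the wildtype bar the highest.

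Per kilobase of transcript, the order of the genes was the same in all 3 libraries. Zfp534 was the most abundant, at 20.8 CPM per kilobase in DAXX knockout cells, 33.7 in ATRX knockout cells and 55.9 in wildtype. Zfp600 followed with 9.18, 30.9 and 40.96, and then Rex2 with 4.82, 14.5 and 22.1 on the same scale and in the same order of libraries. Zfp951 had 2.05 in DAXX knockout cells, 2.84 in ATRX knockout cells and 6.86 in wildtype. Zfp560 had 0.522 in wildtype. The cluster genes were thus far more abundant than Zfp951 and Zfp560, whose counting error is larger.

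In the DAXX knockout over wildtype, the contrast by which the genes were chosen, Rex2 had a log2 fold of -2.20 (-2.41 to -1.98) and Zfp600 one of -2.19 (-2.36 to -2.02). These were 21.8% and 21.98% of the wildtype level. Zfp534 kept 37.2% of its wildtype level, a log2 fold of -1.43 (-1.55 to -1.30), and Zfp951 kept 28.8%, a log2 fold of -1.80 (-2.30 to -1.33). Zfp560 was at least 9.03-fold lower when its 0 reads were set to a floor of 3. Its interval, which also takes in the counting error of the 36 wildtype reads, reached up to 14.3% of the wildtype level. A gene was called lower when its whole interval lay beyond 2-fold and it had at least 1 CPM in either library compared, and by this rule 5 of 5 were called. Over all genes 204 of 13151 were called lower (1.55%), a share given as background only, since the 5 were selected on this contrast. Zfp-named genes are here those with a Zfp symbol in the count tables, whatever their GENCODE name. Just outside the chosen set, Zfp773 was the remaining gene so named that was called lower. It had 2 reads in DAXX knockout cells, 8 in ATRX knockout cells and 25 in wildtype.

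The other 2 comparisons each share a library with the one used for the choice, so they are not independent of it. In the ATRX knockout over wildtype, 1 of the 5 genes was called lower and 0 higher, where 1.15% of all genes tested were called lower and 0.695% higher. That gene was Zfp560, with a log2 fold of -3.10 (-5.05 to -1.62) from 4 reads in the ATRX knockout against 36 in wildtype. Zfp951 had -1.26 (-1.64 to -0.88), an estimate beyond 2-fold with an interval that was not. Zfp534, Rex2 and Zfp600 had -0.73 (-0.83 to -0.63), -0.61 (-0.74 to -0.48) and -0.52 (-0.62 to -0.42), which correspond to 60.3%, 65.5% and 69.9% of the wildtype level. Zfp951 and Zfp560 kept less, 41.8% (32.03% to 54.2%) and 11.6% (3.01% to 32.5%), with intervals that lay below those of the 3 cluster genes.

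Set directly against the ATRX knockout, the DAXX knockout had lower Rex2, at -1.59 (-1.81 to -1.36), and lower Zfp600, at -1.67 (-1.85 to -1.50). These were the 2 genes called of 4 tested, where 0.77% of all genes were called lower and 0.362% higher, and 0 of the 4 were higher. Zfp534 had -0.70 (-0.83 to -0.56), with an interval nearer to 0 than, and apart from, those of Rex2 and Zfp600. Zfp951 had -0.54 (-1.10 to -0.00), an interval that ended next to no difference. Zfp560 was under 1 CPM in both knockouts and was not tested. Levels in the order DAXX knockout, ATRX knockout and wildtype from low to high were found in 5 of 5 chosen genes. Among genes with a mean of at least 1 CPM the order was found in 1866 of 12759 (14.6%). The 2 shares are not alike, since the choice had already placed the DAXX knockout below wildtype. Zfp560 was also under that floor, and its order in the knockouts rests on 0 against 4 reads. The share among genes below wildtype in the DAXX knockout was not computed.

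Markers of other cell types also differed between the libraries. Over all genes tested, 1.55% were called lower in the DAXX knockout over wildtype and 1.15% in the ATRX knockout over wildtype. All 11 primitive endoderm markers were called lower in DAXX knockout cells and 3 of 11 in ATRX knockout cells. Their summed level was 217 CPM in DAXX knockout cells, 364 CPM in ATRX knockout cells and 626 CPM in wildtype, with Sox17 at 0 reads in the DAXX knockout. Of 5 feeder fibroblast markers tested 4 were called lower in DAXX knockout cells and 1 in ATRX knockout cells. The 8 listed summed to 7.51 CPM in DAXX knockout cells, 13.1 CPM in ATRX knockout cells and 28.1 CPM in wildtype, with Postn, Dcn and Lum at 0 in both knockouts and Lum at 0 in wildtype. Of 6 trophoblast markers tested 2 were called lower in DAXX knockout cells and 1 in ATRX knockout cells, and the 8 listed summed to 85.9, 91.4 and 126 CPM in the DAXX knockout, ATRX knockout and wildtype. Cdx2 and Elf5 were at 0 in wildtype and Elf5 in the ATRX knockout. Of the 4 markers tested of the 2-cell-like state 0 were called, a count near the share over all genes. The 8 listed summed to 6.68 CPM in DAXX knockout cells, 12.8 CPM in ATRX knockout cells and 13.6 CPM in wildtype. The part of these cells in the zinc finger values was not tested, and in bulk RNA fewer cells of a type and less RNA per cell cannot be told apart.

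The finger-encoding transcript rows of Zfp600 and of Zfp951 were lower together in the DAXX knockout. Within each gene these rows overlap in position and encode a protein of the same length. How reads were divided between them is not known, so their values are not separate observations. Zfp600 has a pair of full-length rows of 4154 and 4244 bases that encode 17 fingers. The shorter had 169 reads in DAXX knockout cells, 605 in ATRX knockout cells and 956 in wildtype, and the longer had 156, 690 and 1017. The remaining row, of 569 bases, encodes 0 fingers and had 13, 68 and 71 reads, which gave it a log2 fold of -2.04 (-3.02 to -1.17) in the DAXX knockout over wildtype and 0.01 (-0.50 to 0.51) in the ATRX knockout over wildtype. Zfp951 has finger-encoding rows of 2904 and 1356 bases. The longer had 23 reads in DAXX knockout cells, 54 in ATRX knockout cells and 129 in wildtype, and the shorter had 14, 26 and 65. The last Zfp951 row, of 1923 bases, had 8, 3 and 14 reads, too few to place. Rex2, Zfp534 and Zfp560 have 1 row each.

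The falls on chromosome 4 extended to neighbouring genes that carry predicted-gene names in the count tables. In the region from Prdm2 to Zfp933, 14 genes were named Zfp or Rex2, in the tables or in GENCODE M21, or encoded 4 or more C2H2 fingers, and all 14 passed the floor of 1 CPM. In the DAXX knockout over wildtype, 7 of 14 were called lower, 0 were called higher, and the median log2 fold was -1.15. Over all genes 1.55% were called lower, 0.487% were called higher, and the median was 0.02. The 7 include Rex2, Zfp534 and Zfp600, which were low by choice. With Rex2, Zfp534 and Zfp600 left out, 4 of 11 were called lower and the median was -1.03. These 4 were Gm13247 (Zfp981), 2610305D13Rik (Zfp979), Gm13242 (Zfp980) and Gm13051 (Zfp987), where the symbol in parentheses is that of GENCODE. They share sequence with the chosen genes, so this count is not independent of the choice.

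Gm13247 (Zfp981) had 169 reads in DAXX knockout cells, 551 in ATRX knockout cells and 1102 in wildtype, a log2 fold in the DAXX knockout over wildtype of -2.29 (-2.54 to -2.06). 2610305D13Rik (Zfp979) had 386 reads in DAXX knockout cells, 1272 in ATRX knockout cells and 2339 in wildtype, with -2.19 (-2.35 to -2.03). Both intervals overlapped those of Rex2 and Zfp600. Gm13242 (Zfp980) had 564, 1686 and 2540 reads in the same order of libraries, with -1.76 (-1.89 to -1.63). Gm13051 (Zfp987) had 752, 1438 and 2403 reads, with -1.27 (-1.39 to -1.15). Gm13212, Gm13251 (Zfp992) and Gm13154 (Zfp985) lay at the 2-fold line without being called, at -1.05 (-1.24 to -0.85), -1.03 (-1.13 to -0.92) and -1.01 (-1.20 to -0.81). Gm13157 (Zfp984) had -0.62 and Gm13225 (Zfp990) had -0.51.

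The genes at the ends of the region were not called. Prdm2, a PR-domain gene that met the finger count, lies more than 2 Mb from the next gene of the list and had a log2 fold of -0.22 (-0.35 to -0.08). Zfp933, at the other end, had 99 reads in DAXX knockout cells, 75 in ATRX knockout cells and 96 in wildtype, and was the only gene of the 14 with a positive value, 0.45 (0.04 to 0.88). In the ATRX knockout over wildtype 0 of 14 were called lower, where 1.15% of all genes were. All 14 estimates were below 0, where 47.8% of all genes tested were. The median of the 14 was -0.52, against 0.02 over all genes. The interval of Zfp933 included no difference. Many of the cluster genes share sequence, so their signs are not separate observations. Gm13154 (Zfp985) had the lowest of the 14 estimates, -1.02 (-1.20 to -0.84). Its levels in the knockouts were nearly equal, 27.4 CPM in DAXX knockout cells and 27.2 CPM in ATRX knockout cells. For Prdm2, Gm13225 (Zfp990) and Gm13157 (Zfp984) the interval of the DAXX over the ATRX knockout also included no difference. In the DAXX knockout over the ATRX knockout, 5 of 14 were called lower, namely Zfp600, Rex2, 2610305D13Rik, Gm13247 and Gm13242. With the chosen genes left out it was 3 of 11, where 0.77% of all genes were called lower. Summed over the 14 genes, reads numbered 6906 in DAXX knockout cells, 14302 in ATRX knockout cells and 22292 in wildtype, or 41.2% of the wildtype level in DAXX knockout cells and 67.3% in ATRX knockout cells. Without the 3 chosen genes the sum was 45.6% of the wildtype level in DAXX knockout cells and 68.05% in ATRX knockout cells.

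**Figure D2:**
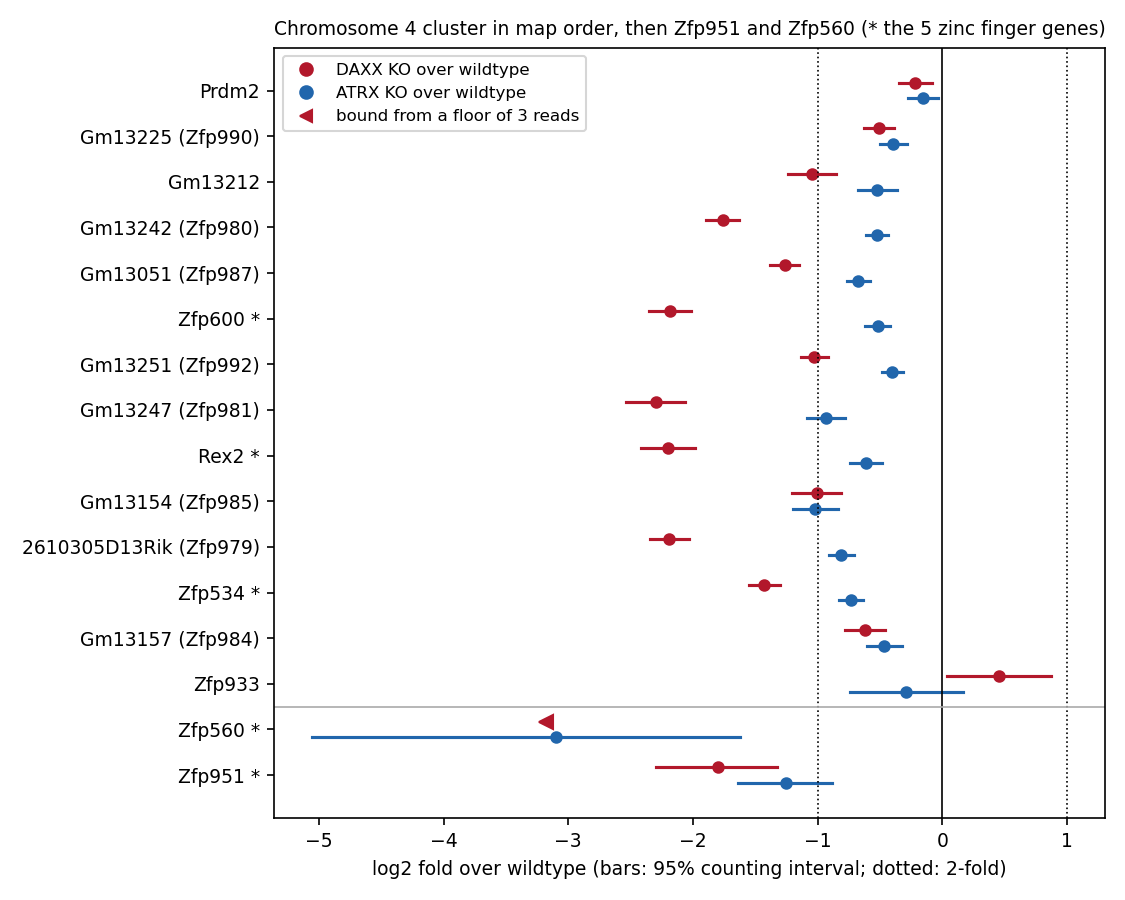
Log2 fold over wildtype in the DAXX knockout (red, upper of each pair) and the ATRX knockout (blue, lower) for the 14 finger genes of the chromosome 4 region in map order, followed by Zfp560 and Zfp951. Bars are exact 95% counting intervals, dotted lines mark 2-fold, the triangle is a bound from a floor of 3 reads, and asterisks mark the 5 zinc finger genes. In the DAXX knockout 7 of the 14 intervals lie wholly beyond 2-fold, and in the ATRX knockout none does.

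Most finger genes elsewhere in the genome were not lower. Of the 335 genes tested with a Zfp symbol in the count tables, 5 were called lower in the DAXX knockout over wildtype. Of these 5, 4 are in the chosen set, and the median log2 fold of the 335 was 0.05. Zfp979, Zfp980, Zfp981 and Zfp987 of the cluster, also called lower, have Zfp names in GENCODE only and are not counted there. Among 460 genes with 4 or more fingers outside the cluster and the chosen set, 3 were called lower (0.652%) and 3 higher. Over all genes 1.55% were called lower and 0.487% higher. The median of the 460 was again 0.05. Besides Zfp773, those called lower were 2610044O15Rik8 and Zscan5b. 2610044O15Rik8 had 83 reads in DAXX knockout cells, 180 in ATRX knockout cells and 389 in wildtype, and Zscan5b had 2, 3 and 37. Windows of 5 Mb that held at least 8 tested finger genes numbered 14. The chromosome 4 window holds 3 of the chosen genes, low there by choice, and the chromosome 9 window holds Zfp560. With these left out, the chromosome 4 window had 3 of 10 genes called lower in the DAXX knockout over wildtype, with a median of -1.01. The median of the chromosome 4 window was -0.52 in the ATRX knockout over wildtype. The other 13 windows then had medians between -0.10 and 0.31 for the DAXX knockout and between -0.22 and 0.30 for the ATRX knockout. Of these 13, 1 held any gene called lower in the DAXX knockout.

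**Figure D3:**
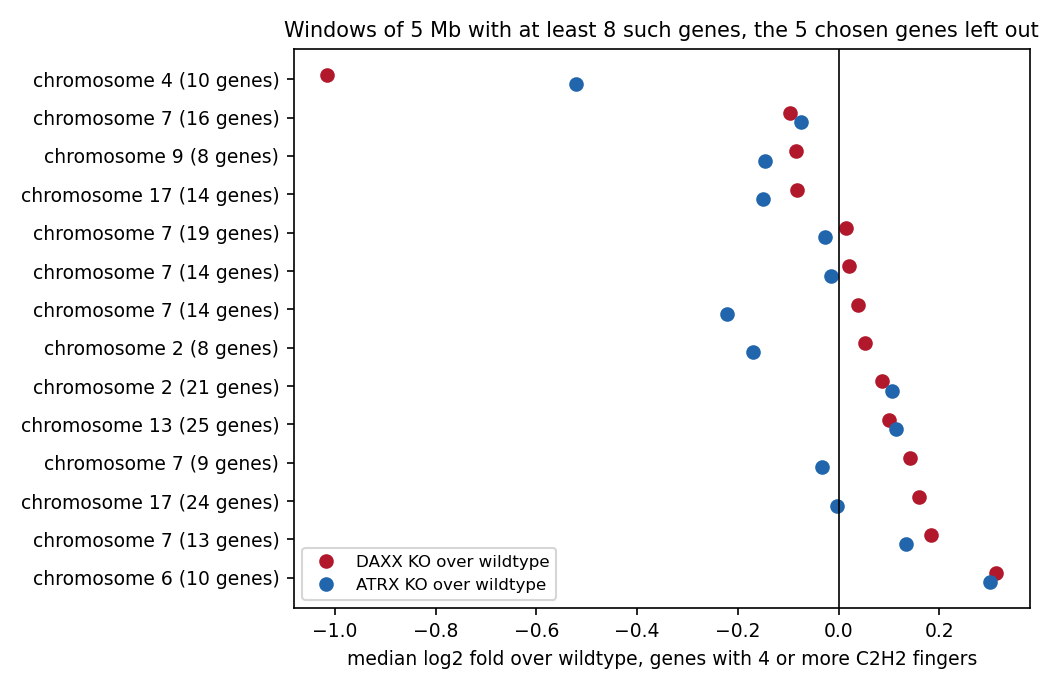
Median log2 fold over wildtype of genes with 4 or more C2H2 fingers in each 5 Mb window with at least 8 such genes, for the DAXX knockout (red, upper) and the ATRX knockout (blue, lower), labelled by chromosome and number of genes. The 5 chosen genes are left out of the medians, but genes kept in the chromosome 4 window share sequence with them. The chromosome 4 window is at -1.01 in the DAXX knockout, and the other 13 windows lie between -0.10 and 0.31.

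Genes of other kinds, neither named Zfp nor encoding 4 or more fingers, were counted around the cluster. Within 1 Mb of Rex2, Zfp534 or Zfp600, 1 of 28 such genes tested was called lower in the DAXX knockout over wildtype, 0 were called higher, and the median was 0.01. Over all genes the shares called were 1.55% lower and 0.487% higher. The gene called lower was 4933438K21Rik, a noncoding RNA just beyond the end of Rex2 that does not overlap it, with 4 reads in DAXX knockout cells, 22 in ATRX knockout cells and 35 in wildtype. The nearest measured genes on the sides of Zfp600 were Gm13051 and Gm13251, those of Zfp534 were 2610305D13Rik and Gm13157, and on its other side Rex2 had Gm13247, all finger genes described above.

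The neighbours of Zfp560 and Zfp951 were not called. Within 1 Mb of Zfp560, 0 of 32 genes tested were called in the DAXX knockout over wildtype and the median was 0.11, and near Zfp951 it was 0 of 10 with a median of 0.28. With 1.55% of all genes called lower and 0.487% higher, lists this short could hold no call at the share of all genes. Zfp26, the finger gene next to Zfp560, had 270 reads in DAXX knockout cells, 319 in ATRX knockout cells and 543 in wildtype, log2 folds of -0.60 (-0.81 to -0.38) and -0.70 (-0.90 to -0.50) for the DAXX and ATRX knockouts over wildtype. Zfp317, on its other side, had -0.20 (-0.47 to 0.07) and -0.40 (-0.67 to -0.14). The neighbours of Zfp951 were D930016D06Rik, at 0.10 (-0.21 to 0.40) in the DAXX knockout, and Lrrc8b, a subunit of the volume-regulated anion channel, at 0.25 (-0.00 to 0.49).

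Copies within the cluster share sequence, which limits how far a single gene can be read. Of the distinct 50-base words in the Rex2 transcript, 88.4% also occur in transcripts of other genes, 79.8% in Zfp600 and 59.3% in Gm13242. For Zfp600 the share was 79.0%, with 71.6% in Rex2 and 51.4% in Gm13242, and for Zfp534 it was 61.2%, with 53.9% in Gm13051 and 17.4% in Gm13225. The values of Rex2, Zfp600 and Zfp534 are therefore uncertain, because a read from a shared stretch could have been counted on a sister gene. Summed with Gm13242, Rex2 and Zfp600 gave a log2 fold of -1.99 in the DAXX knockout over wildtype and -0.54 in the ATRX knockout over wildtype, and Zfp534 summed with Gm13051 gave -1.34 and -0.70.

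Calls in the DAXX knockout over wildtype were counted by how much sequence a cluster gene shares. Of the 6 cluster genes with over 75% of words found in no other gene, 1 was called lower, and of the 8 with more sharing, 6 were, or 3 of 5 with Rex2, Zfp534 and Zfp600 left out. The 1 gene was 2610305D13Rik (Zfp979), with 83.1% unshared words. The other 5 were Prdm2 (-0.22), Gm13225 (-0.51), Gm13251 (-1.03), Gm13154 (-1.01) and Zfp933 (0.45). Gm13247 (Zfp981), called lower, had 64.2% unshared words. The part of read sharing in these values was not tested. Zfp560 shares 0% of its words and Zfp951 shares 0.77%, at most 12 words with any gene (Gm16249) and 10 with the next (Ctage5). Only exact matches of words were counted, and read length and alignment settings are not given. Exchange of reads between Zfp560 or Zfp951 and other genes was not tested.

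**Figure D4:**
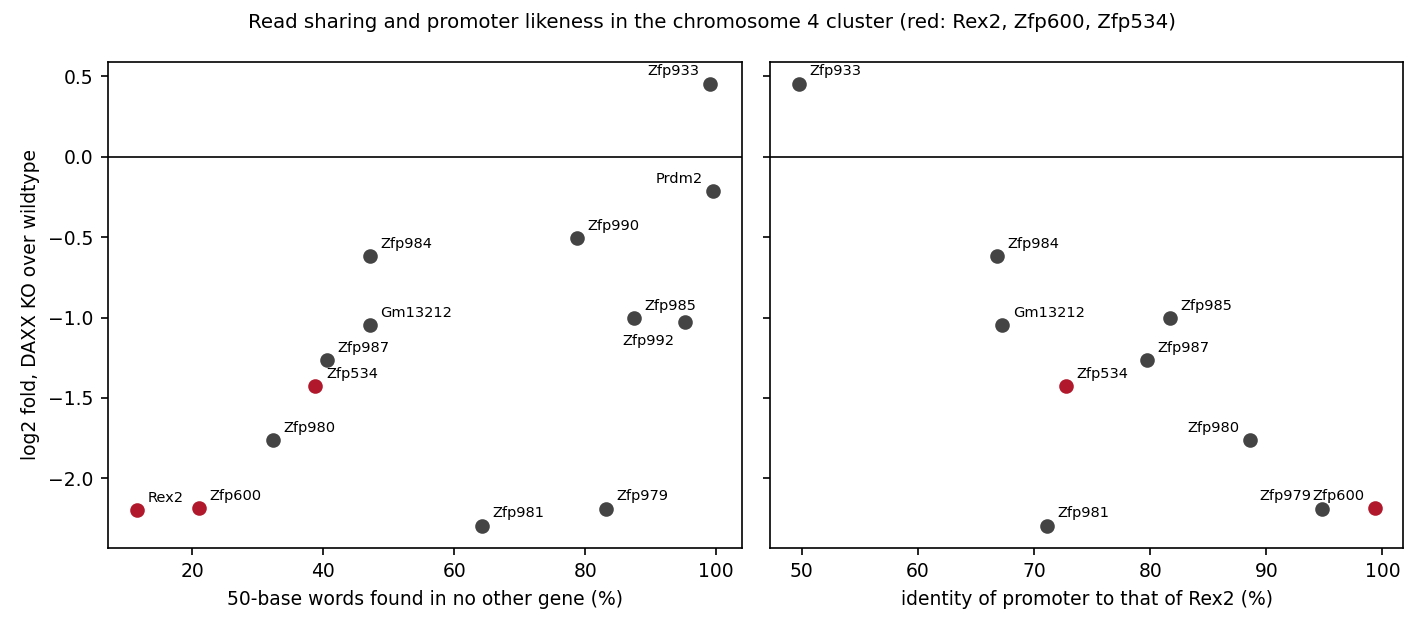
Log2 fold in the DAXX knockout over wildtype of each cluster gene, by GENCODE symbol, against the share of its 50-base words found in no other gene (left, 14 genes) and against the identity of its promoter to that of Rex2 (right, 10 genes with a RefSeq promoter, Rex2 left out). Of the 6 genes with over 75% unshared words 1 (Zfp979, at 83.1%) was called lower, and of the other 8 genes 6 were. Zfp981 has a log2 fold of -2.29 and a promoter 71.1% identical to that of Rex2.

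Across the cluster, 55 pairs of promoters had a median identity of 71.7%, from 48.04% to 99.3%. The promoters most like that of Rex2 belonged to Zfp600 (99.3%), Zfp979 (94.8%) and Zfp980 (88.6%), whose log2 folds in the DAXX knockout over wildtype were -2.19, -2.19 and -1.76. Zfp985 and Zfp987 followed at 81.7% and 79.7% identity, with log2 folds of -1.01 and -1.27. Zfp534, at 72.8%, had -1.43, and Zfp981, at 71.1%, had -2.29, so the order of the folds was not the order of identity. Gm13212, at 67.3%, had -1.05, Zfp984, at 66.8%, had -0.62, and Zfp933, at 49.7%, had 0.45. The RefSeq start of Zfp981 lies 12893 bases from the GENCODE start. These are values of related copies and are given without a test.

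Of the 16 genes in the cluster and the chosen set, 13 had a RefSeq promoter. On either strand, GGAAGT occurred in 12 of the 13, Zfp933 being without it, and in 23.7% of the 32544 promoters of the same length. Rex2, Zfp600 and Zfp534 had 2 copies each, seen as closely spaced capitals in the sequences above, and Zfp560 and Zfp951 had 1 each. The letters CCAAT occurred in 11 of 13, against 37.4% of all promoters, and GGGCGG in 9 of 13, against 35.9%. A run of 28 bases just before the first capitals, gtccagaaggagtggctctgaggaacca, was found in 8 of the 32544 promoters, those of Rex2, Zfp534, Zfp600, Zfp980, Zfp982, Zfp985, Zfp987 and Zfp988. That run was taken as the longest exact stretch shared by the promoters of Rex2, Zfp600 and Zfp534, so its presence in these was fixed beforehand. Because the cluster promoters are copies of each other, their matches are not separate observations, and a match is not evidence of binding.

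Outside the chosen set, the Zfp-named genes closest in pattern were sought among 326 with a mean of at least 1 CPM over the 3 libraries. These include Zfp933 of the cluster. Closeness was the distance in the plane of the 2 log2 folds over wildtype, computed with a prior count of 1. The place of Zfp560 in that plane depends on the prior count, since it had 0 reads in the DAXX knockout. Zfp608 was nearest to Rex2 (distance 0.51), Zfp600 (0.59), Zfp951 (0.28) and Zfp560 (3.49), and it had only 5 reads in DAXX knockout cells, 13 in ATRX knockout cells and 30 in wildtype. Zfp640 was nearest to Zfp534, at 0.34, with 296 reads in DAXX knockout cells, 477 in ATRX knockout cells and 839 in wildtype. Zfp160 (67, 127 and 190 reads) was among the nearest 3 to each of Rex2, Zfp534 and Zfp600. Zfp958 (107, 170 and 284 reads) was among the nearest 3 to Zfp534, and Zfp386 (70, 63 and 168 reads) was among the nearest 3 to Zfp560 and Zfp951. None of these genes was called lower in the DAXX knockout, an outcome fixed by the floor and by the limit to Zfp-named genes. The finger gene 2610044O15Rik8 (83, 180 and 389 reads), called lower, passed the floor but was not searched because it lacks such a name. Zfp773, the only other Zfp-named gene called lower, had 0.183, 0.578 and 1.72 CPM in the DAXX knockout, ATRX knockout and wildtype. Its mean was under the floor, so it was left out of the search. Zfp560 was under the same floor, which was not applied to the chosen genes.

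The listed genes through which KRAB zinc finger proteins act were not called in the DAXX knockout over wildtype. Of 23 corepressor and chromatin genes measured, 0 were called lower and 0 higher there, with a median log2 fold of 0.05. Over all genes 1.55% were called lower and 0.487% higher, so a list this short could hold no call at that share. The 1 called lower in the ATRX knockout over wildtype, where 1.15% of all genes were, was Atrx itself. Trim28 had 0.05 (0.02 to 0.08) in DAXX knockout cells and -0.37 (-0.39 to -0.34) in ATRX knockout cells. Setdb1 had 0.09 (-0.01 to 0.18) in DAXX knockout cells and -0.22 (-0.31 to -0.13) in ATRX knockout cells. Atf7ip, a partner that stabilises SETDB1, had the highest value in both, 1.01 (0.90 to 1.11) in DAXX knockout cells and 0.93 (0.82 to 1.03) in ATRX knockout cells, with neither called. The same list held 4 KRAB zinc finger genes from outside the cluster, Zfp57, Zfp809, Zfp568 and Zfp932, of which 0 were called. In the DAXX knockout over wildtype, Zfp57, which protects imprinted methylation, had -0.05 (-0.11 to 0.01), and Zfp809, which silences murine leukaemia virus-type elements, had -0.07 (-0.40 to 0.27).

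Retroelement families, the usual targets of such proteins, were read from the repeat sequences of the same tables. Intracisternal A particles (IAP) had 9500 reads in DAXX knockout cells, 8181 in ATRX knockout cells and 3549 in wildtype, log2 folds of 1.83 (1.78 to 1.89) and 1.27 (1.22 to 1.33) over wildtype. Elements like murine leukaemia virus had 1894, 634 and 546 reads, with 2.20 (2.07 to 2.34) in DAXX knockout cells and 0.28 (0.12 to 0.45) in ATRX knockout cells. ETn elements had 0.50 (0.48 to 0.52) and 0.37 (0.35 to 0.39). MMERGLN elements, with 92 reads in DAXX knockout cells, 64 in ATRX knockout cells and 99 in wildtype, had 0.30 (-0.12 to 0.73) and -0.56 (-1.04 to -0.09). These values stand beside those of the zinc finger genes, and no relation between them was tested.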

How the data were processed

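Read counts per reference sequence, as deposited and not normalised by the authors, were used from 3 libraries, 1 per genotype, in the layout of SAMtools idxstats. The submitters' processing notes name Bowtie 1.1.2, SAMtools and build GRCm38.p4. Alignment settings, read length, the placement of reads with several equal positions and strand use are not given in the sources used here. Reads placed on the wrong sister copy would move counts between the chromosome 4 genes. Without strand, antisense partners cannot be separated. None overlapped the 5 genes, and 1700095A21Rik (2, 5 and 18 reads in the DAXX knockout, ATRX knockout and wildtype) overlapped Gm13247.

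Transcript counts were summed per symbol and scaled by TMM (edgeR 4.0.16, R 4.3.3), with factors of 0.973 for the DAXX knockout, 0.990 for the ATRX knockout and 1.04 for wildtype. Folds carry exact conditional binomial (Clopper-Pearson) 95% intervals (SciPy 1.17.1), and levels carry exact Poisson intervals. With 0 residual degrees of freedom no p-value was computed. A gene was called when its whole interval lay beyond 2-fold and it reached 1 CPM in either library. A count of 0 was set to a floor of 3 reads. Medians over lists used a prior count of 1. Repeat reads were scaled by the same factors.

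Positions, gene names and transcript sequences came from GENCODE M21 (48315 of 48843 transcripts matched, 41543 with the same length), and promoters from RefSeq (GRCm38.p6). Fingers were counted in translated coding sequences, and promoters were aligned globally with Biopython 1.88. The genes and lists were chosen with earlier results of these data known. Genes named in the text were Atrx and Daxx, the 5 genes, called genes of the cluster, the nearest 3 Zfp-named genes in pattern, the 2 genes sharing most words, the flanking genes and called corepressors. Others were named after their values were seen.

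The alternatives were scaling by total counts or by median-of-ratios size factors (DESeq2 1.42.0), the most abundant transcript in place of the sum, other floors, thinning to the smallest library, other call rules and sums with sister genes.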

Additional observations from a re-analysis of the deposited data

How the results depend on the processing

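No paired analysis was possible because each genotype has 1 library. The 5 genes were called lower in the DAXX knockout over wildtype under every alternative run, except that Zfp560 is not tested at a floor of 5 CPM, which leaves 4. The call in the cluster ranged from 7 to 10 genes. No called fold changed sign, and the bound for Zfp560 in the DAXX over the ATRX knockout, not tested, ran from -0.10 to 0.02. The 1 called of the 5 in the ATRX knockout over wildtype was 0 at the 5 CPM floor, 2 by the point estimate beyond 2-fold (Zfp951 added) and 3 with the interval beyond 1.5-fold (Zfp534 added), and for the cluster it was 1 by the point estimate and 4 at 1.5-fold. The remaining changes follow from the floor or the call rule themselves.

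Zfp-named genes called lower at the 5 CPM floor, by the point estimate and at 1.5-fold numbered 3, 11 and 9 in the DAXX knockout over wildtype and 0, 10 and 5 in the ATRX knockout over wildtype, and by the last 2 rules 5 and 4 in the DAXX over the ATRX knockout. Genes within 1 Mb called lower by the point estimate and at 1.5-fold numbered 13 and 10, 3 and 3, and 7 and 5 in the same comparisons. Over all genes, those called lower at the 5 CPM floor, by the point estimate and at 1.5-fold numbered 108, 796 and 412 in the DAXX knockout over wildtype, 88, 607 and 364 in the ATRX knockout over wildtype, and 64, 604 and 325 in the DAXX over the ATRX knockout. Those called higher by the point estimate and at 1.5-fold numbered 208 and 184, 327 and 336, and 279 and 193. Another 137 counts stayed within 1.5 times. Depth limits Zfp560 most, since 36 wildtype reads carry its call.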

Other observations

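Beside the zinc finger genes, the region of chromosome 4 further towards Prdm2 holds genes of the Prame family, germline and early-embryo genes that also occur as tandem copies. Pramef8 had 90 reads in DAXX knockout cells, 273 in ATRX knockout cells and 349 in wildtype, a log2 fold of -1.54 in the DAXX knockout over wildtype that was called lower, and -0.29 in the ATRX knockout over wildtype. Pramef12 had 118, 134 and 274 reads, with -0.80 and -0.96, and Pramel1 had 25, 31 and 66 reads, with -0.99 and -1.02, and neither was called. These genes were looked at after the values of the region had been seen.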
